A study of Mus musculus with 6 samples.

Results

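The genes that drive the cell division cycle were followed in osteoblasts and chondrocytes of newborn mice. The set holds 44 named genes of 23364 gene symbols in the deposited table: 10 genes of the G1 phase and its exit, 10 of DNA replication in S phase, 20 of mitosis and 4 inhibitors of cyclin-dependent kinases. They were chosen by name, and all 44 reached 1 RPKM in 3 or more of the 6 libraries, the filter on low values. Rb1 and Ccne2 reached it in osteoblasts only. In Mki67, Ccnb1, Bub1, Aurka, Aurkb, Plk1, Cenpe, Cenpf, Kif11, Kif20a, Ttk, Nusap1 and Tpx2 chondrocyte replicate 1 stayed below 1 RPKM. These mitotic genes therefore met the filter only with the help of osteoblast libraries. Their adjusted p are from the filtered fit, and the count of mitotic calls without a filter is given below. Osteoblasts, the cells that build bone, came from calvaria (the skull roof) as 3 libraries of GFP-sorted cells labelled Sp7 positive. Chondrocytes, the cells of cartilage, came from wild-type ribs as 3 libraries, with no sorting named in their labels. All mice were C57BL/6 at postnatal day 1. Cell type, skeletal site, sorting, genotype and the enzymes used to free the cells all go with the group and cannot be told apart. The promoter and allele that carry the GFP are not given in the sources used here, and neither is the number of animals pooled in a library. The p-values therefore measure only the spread between these libraries, which may be technical.

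Cells enter the cycle through D-type cyclins, which activate Cdk4 and Cdk6 to phosphorylate the retinoblastoma protein Rb1 and release E2F factors. E2F factors then switch on cyclin E and the replication machinery, and later a second wave of genes with cyclin A, cyclin B and Cdk1 carries the cell through mitosis. Growth plate chondrocytes divide in columns before they stop and enlarge, and osteoblast precursors divide before they mature, so both lineages hold dividing and resting cells. Inhibitors of the Cip/Kip family bind cyclin and kinase complexes and can hold a cell out of the cycle.

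Expression was given as RPKM, a read number corrected for transcript length and library depth, and was summed over the transcripts of a gene. Each difference is the osteoblast mean less the chondrocyte mean of log2(RPKM + 1), a scale that shrinks changes of low genes, and genes were called at an adjusted p under 0.05 (limma, Benjamini-Hochberg over 11218 tested genes). The libraries matched their labels: 10 of 10 osteoblast markers were higher in osteoblasts, and 10 of 10 chondrocyte markers were lower there. Summed chondrocyte markers ranged from 80.8 to 98.0 RPKM in osteoblasts and from 34277 to 61018 RPKM in chondrocytes. Steps among low values put the depth at about 53.8 to 71.7 reads for 1 RPKM of a 2 kb transcript. On the deposited scale the median difference over all tested genes was 0.43, and 55.5% of tested genes were called higher in osteoblasts and 13.5% lower, so 80.5% of calls were higher. After median-of-ratios scaling, which centres the typical gene, that median was 0.06, the shares were 33.6% and 28.3%, and 54.2% of calls were higher. Each class below is read against these shares.

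By class, 8 of 10 G1 genes, 10 of 10 S phase genes, 16 of 20 mitotic genes and 2 of 4 inhibitors were called higher in osteoblasts, and 1 inhibitor was called lower. The median log2 difference was 1.03 for G1, 1.06 for S phase, 1.52 for mitosis and 0.34 for the inhibitors, against 0.43 for all tested genes. In 32 of the 44 members every osteoblast library lay above every chondrocyte library, as in 60.4% of tested genes. In 1 member, Cdkn1c, the order was the opposite, as in 15.3% of tested genes.

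**Figure D1:**
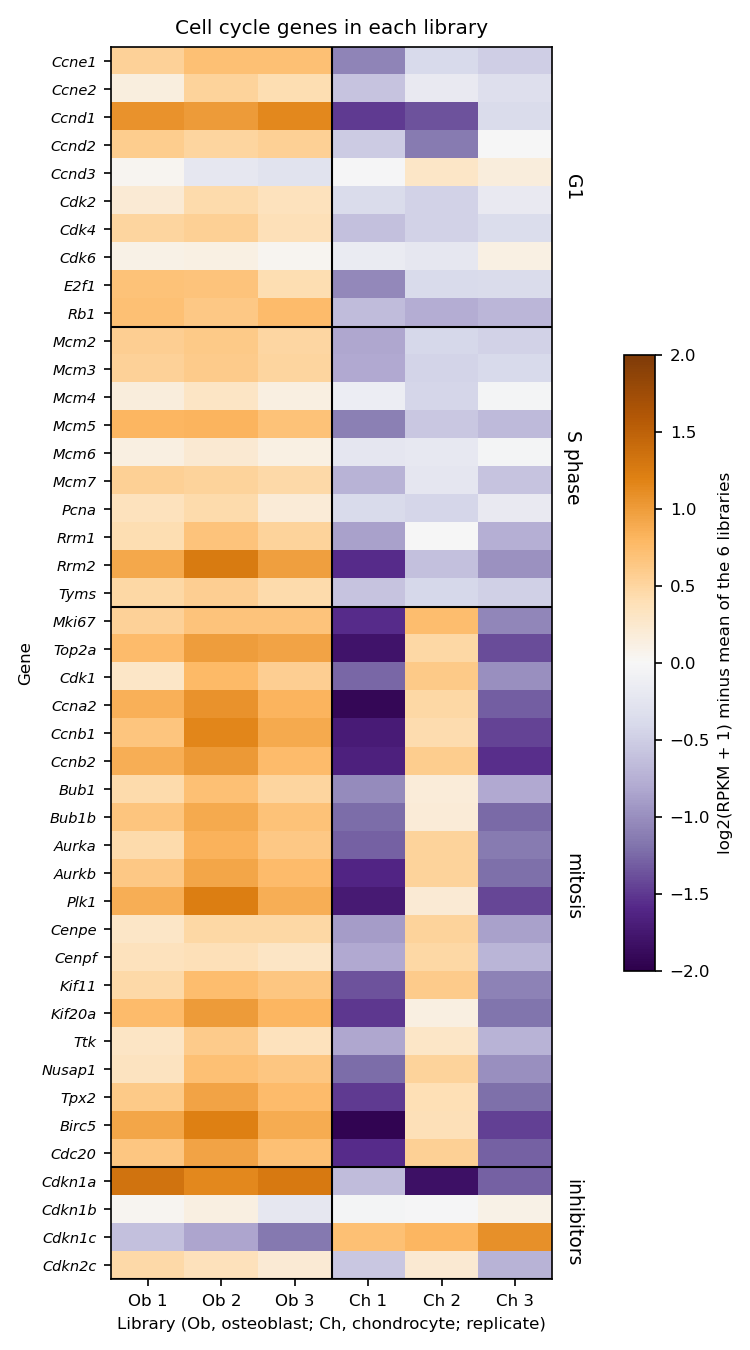
Level of each of the 44 genes (rows, by class) in the 6 libraries (columns), as log2(RPKM + 1) minus the gene's mean over the libraries; orange is above that mean and purple below. In chondrocytes the 20 mitotic genes are low in replicates 1 and 3 and near the osteoblast level in replicate 2.

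The mean log2 level of the 20 mitotic genes was 2.93, 3.21 and 3.03 in osteoblast replicates 1 to 3 and 0.92, 2.78 and 1.19 in chondrocyte replicates 1 to 3. The osteoblast libraries were alike, and chondrocyte replicate 2 stood close to them and far from the other chondrocyte libraries. The 10 S phase genes averaged 3.95, 4.07 and 3.92 in osteoblasts and 2.74, 3.09 and 3.01 in chondrocytes, so all chondrocyte libraries lay below all osteoblast libraries. The same held for the 10 G1 genes, at 4.01, 4.04 and 3.99 against 2.89, 3.03 and 3.29. It also held for the inhibitors, for the mitotic genes (lowest osteoblast 2.93, highest chondrocyte 2.78) and for all tested genes. The mean over all tested genes was 3.32 in osteoblasts and 2.91 in chondrocytes. This order is therefore not particular to S phase and G1 genes. The SD of the class mean among chondrocyte libraries was 1.01 for mitosis, 0.18 for S phase, 0.20 for G1 and 0.042 for the inhibitors. The inhibitor mean hides opposite moves of its genes, whose single SDs ran from 0.081 for Cdkn1b to 0.59 for Cdkn1a. Within a library, where scaling has little effect, mitotic genes lay below S phase genes by 1.03, 0.86 and 0.89 in osteoblasts. In chondrocytes that gap was 1.82, 0.30 and 1.82, smallest in replicate 2.

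**Figure D2:**
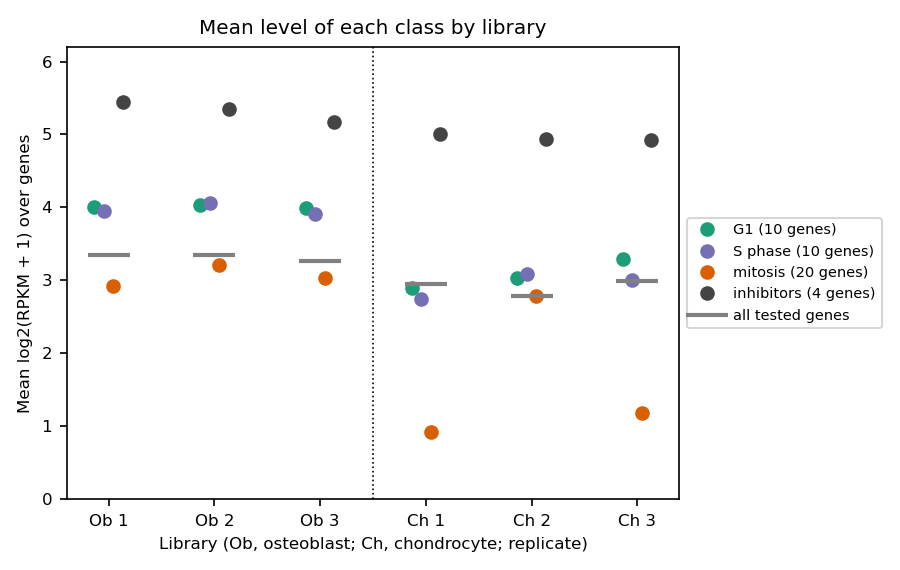
Mean log2(RPKM + 1) over the genes of each class (points) and over all tested genes (grey bars) in each library. The mitotic mean is 0.92 and 1.19 in chondrocyte replicates 1 and 3, and 2.78 in replicate 2.

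The D-type cyclins, which tie the cycle to outside growth signals, differed in their balance. Ccnd1, cyclin D1, stood at 46.8, 44.5 and 49.3 RPKM in osteoblasts and 7.08, 7.78 and 16.5 RPKM in chondrocytes. It was 4.48-fold higher in osteoblasts, with no overlap (log2 difference 2.15 ± 0.28 SE, limma adjusted p = 0.000413), and chondrocyte replicate 3 was the highest of its group. Ccnd2, cyclin D2, stood at 69.2, 65.4 and 67.1 RPKM against 31.3, 20.3 and 45.5 RPKM (1.10 ± 0.26 SE, limma adjusted p = 0.00663), again highest in chondrocyte replicate 3. Summed markers of perichondrial and fibroblast cells were also highest there among chondrocytes, at 19374 RPKM against 6566 and 5686 RPKM in replicates 1 and 2. Of the 19374 RPKM, Col1a1 made up 7765 and Col1a2 6574, and both are also on the osteoblast list. Summed osteoblast markers (4673, 4262 and 14353.5 RPKM in chondrocyte replicates 1 to 3) and osteoclast markers (59.4, 47.9 and 165.4 RPKM, mostly Ctsk) were highest there too. The part of these markers in the cyclin values was not tested. Ccnd3, cyclin D3, was not called, at 109.9, 92.1 and 88.0 RPKM against 105.1, 130.0 and 119.4 RPKM, and its groups overlapped (-0.29, 95% interval -0.60 to 0.03, limma adjusted p = 0.0899). Under median-of-ratios scaling it was called lower in osteoblasts (-0.73, limma adjusted p = 0.00593). As shares of the summed D-cyclin RPKM, Ccnd3 made up 48.6%, 45.6% and 43.0% in osteoblasts and 73.3%, 82.2% and 65.8% in chondrocytes. Ccnd1 made up 20.7%, 22.0% and 24.1% against 4.93%, 4.92% and 9.12%. These shares do not depend on library scaling and did not overlap between the cell types.

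Cdk4 and Cdk6, the kinases that D-type cyclins activate, were far apart in level. Cdk4 stood at 100.2, 102.7 and 91.2 RPKM in osteoblasts and 45.3, 50.5 and 54.3 RPKM in chondrocytes (0.96 ± 0.11 SE, limma adjusted p = 0.000249). Cdk6 stood at 1.91, 1.94 and 1.77 RPKM against 1.41, 1.33 and 1.94 RPKM and was not called (0.17, 95% interval -0.10 to 0.45; -0.10 under median-of-ratios scaling). The RPKM ratio of Cdk4 to Cdk6 ran from 51.6 to 52.9 in osteoblasts and from 28.0 to 37.8 in chondrocytes. Rb1 is the brake that Cdk4 and Cdk6 release. On the log2(RPKM + 1) scale, which shrinks the spread of low genes, Rb1 had the smallest chondrocyte SD of the G1 genes, 0.060. Its values were 3.86, 3.61 and 4.04 RPKM in osteoblasts and 0.887, 0.738 and 0.836 RPKM in chondrocytes, a 4.67-fold difference with no overlap. Because its chondrocyte values lay below the filter, its test is given from the fit without a filter (1.41, limma adjusted p = 0.0039).

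At the boundary of G1 and S phase, E2f1 and the E cyclins were higher in osteoblasts. Ccne1, cyclin E1, stood at 5.83, 6.65 and 6.69 RPKM against 1.25, 2.55 and 2.33 RPKM (1.31 ± 0.18 SE, limma adjusted p = 0.000531). E2f1 stood at 8.63, 8.50 and 6.89 RPKM against 1.90, 3.57 and 3.60 RPKM (1.19 ± 0.20 SE, limma adjusted p = 0.00127). In both genes chondrocyte replicate 1 was the lowest, and replicates 2 and 3 lay close together. Cdk2, the kinase of the E cyclins, was also called higher, by 0.68. Ccne2, cyclin E2, below the filter in chondrocytes, differed by 0.73 in the fit without a filter (limma adjusted p = 0.0418).

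All 10 S phase genes were called higher in osteoblasts with no overlap between groups on the deposited scale. Under median-of-ratios scaling 6 of 10 were called higher, against 33.6% of tested genes; the calls of Rrm1, Pcna, Mcm4 and Mcm6 ended (limma adjusted p = 0.0734, 0.0701, 0.95 and 0.295). Rrm2, the small subunit of the reductase that makes deoxynucleotides, differed most, at 18.7, 23.9 and 19.6 RPKM against 2.51, 5.78 and 4.31 RPKM, 4.94-fold (2.11 ± 0.23 SE, limma adjusted p = 0.000202). Its partner subunit Rrm1 stood at 14.3, 17.4 and 15.6 RPKM against 5.29, 10.4 and 5.81 RPKM (1.08 ± 0.22 SE, limma adjusted p = 0.00358). Tyms, thymidylate synthase, was 2.62-fold higher. In Rrm1 and Rrm2 chondrocyte replicate 2 was the highest of its group, 1.79 and 1.34 times replicate 3. Of the 10 S phase genes, 6 were highest in that library, against 17.7% of tested genes. The median ratio of chondrocyte replicate 2 to replicate 1 was 1.38 for S phase genes and 0.85 for all tested genes. To replicate 3 it was 1.05 and 0.83.

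The MCM genes encode the ring of 6 subunits that unwinds DNA, and their differences ran from 0.31 to 1.54. Mcm5 stood at 11.7, 11.9 and 10.8 RPKM in osteoblasts and 2.42, 3.98 and 3.63 RPKM in chondrocytes (1.54 ± 0.15 SE, limma adjusted p = 0.00011). Mcm2 stood at 13.03, 13.6 and 12.4 RPKM against 4.40, 6.16 and 5.91 RPKM (1.12 ± 0.13 SE, limma adjusted p = 0.000224). Mcm3 stood at 11.6, 12.2 and 11.3 RPKM against 3.93, 5.35 and 5.57 RPKM (1.10 ± 0.13 SE, limma adjusted p = 0.000243). In these 3 genes chondrocyte replicate 1 was the lowest library, and Mcm7 differed by 1.03. Mcm6 stood at 17.4, 18.6 and 17.1 RPKM against 13.3, 13.6 and 15.2 RPKM (0.31 ± 0.09 SE, limma adjusted p = 0.0193), and Mcm4 at 10.3, 11.4 and 9.94 RPKM against 8.16, 6.46 and 8.78 RPKM (0.39 ± 0.13 SE, limma adjusted p = 0.0242). The differences of Mcm4 and Mcm6 lay below the 0.43 of the median gene. Their signs turned under median-of-ratios scaling, to -0.01 for Mcm4 and -0.11 for Mcm6. With the replicate number as a block their calls ended (limma adjusted p = 0.0522 and 0.0644). In chondrocytes the mean level was highest for Mcm6, Mcm7 and Mcm4 (14.1, 8.82 and 7.80 RPKM) and lowest for Mcm5 (3.34 RPKM). Pcna, the clamp that holds DNA polymerase on its template, was the most abundant S phase gene, at 54.7, 58.3 and 49.1 RPKM against 32.5, 31.4 and 37.8 RPKM (0.66 ± 0.12 SE, limma adjusted p = 0.0017).

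Mitotic genes were called higher in osteoblasts for 16 of 20 members, against 55.5% of tested genes. All 20 were highest in replicate 2 among the chondrocyte libraries, which was so for 17.7% of tested genes. Each was 4.35 to 9.42 times as high in chondrocyte replicate 2 as in replicate 1, and 3.76 to 6.56 times as high as in replicate 3. Relative to the osteoblast mean of each gene on the deposited scale, the median over the 20 genes was 11.2% in chondrocyte replicate 1, 80.8% in replicate 2 and 16.8% in replicate 3. The median SD of log2 level among chondrocyte libraries was 1.03 for mitotic genes, against 0.35 for inhibitors, 0.22 for S phase genes, 0.19 for G1 genes and 0.18 for all tested genes. Among osteoblast libraries it was 0.14 for mitotic genes and 0.094 for all tested genes. Bulk libraries cannot tell fewer dividing cells from less RNA of these genes per cell.

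Cyclins and their kinase showed the pattern plainly. Ccnb1, cyclin B1, stood at 8.12, 11.9 and 9.71 RPKM in osteoblasts and 0.757, 6.79 and 1.11 RPKM in chondrocytes (1.82 ± 0.52 SE, limma adjusted p = 0.0164). Ccnb2, cyclin B2, had the largest chondrocyte spread of the class, at 12.6, 14.2 and 11.6 RPKM against 1.35, 10.2 and 1.55 RPKM (1.76 ± 0.55 SE, limma adjusted p = 0.0237). Ccna2, cyclin A2, stood at 14.6, 17.2 and 14.3 RPKM against 1.30, 11.0 and 2.51 RPKM (1.83 ± 0.54 SE, limma adjusted p = 0.0185). In these cyclins the highest chondrocyte library came close to, but stayed below, the lowest osteoblast library. Cdk1, the kinase they activate, overlapped between groups and was not called, at 7.01, 10.3 and 8.81 RPKM against 1.75, 9.15 and 2.32 RPKM (1.09, 95% interval 0.01 to 2.16, limma adjusted p = 0.0675).

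Mitotic kinases and chromosome proteins followed. Plk1, the polo kinase of mitotic entry, stood at 8.03, 10.5 and 7.99 RPKM against 0.499, 4.70 and 0.833 RPKM, 4.40-fold higher in osteoblasts (1.97 ± 0.46 SE, limma adjusted p = 0.00696). Birc5, survivin of the chromosomal passenger complex, had the largest log2 difference of the class, at 17.0, 20.7 and 16.4 RPKM against 1.44, 11.2 and 2.43 RPKM (2.02 ± 0.54 SE, limma adjusted p = 0.012). Aurkb, the kinase of that complex, was called (1.54), as was Aurka, the spindle pole kinase, whose groups overlapped (1.27). Top2a, which untangles sister chromatids, was the most abundant mitotic gene after Birc5 in osteoblasts, at 15.6, 18.7 and 18.1 RPKM against 1.87, 12.8 and 2.75 RPKM (1.80 ± 0.53 SE, limma adjusted p = 0.0181). Of the spindle checkpoint genes, Bub1b, Bub1 and Ttk differed by 1.52, 1.10 and 0.84, and Cdc20, which the checkpoint restrains, by 1.54. The spindle motors and spindle proteins Kif20a, Tpx2, Kif11 and Nusap1 differed by 1.71, 1.53, 1.24 and 1.13.

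The mitotic genes without a call were Mki67, Cdk1, Cenpe and Cenpf. Mki67, the antigen Ki-67 used to mark cycling cells, stood at 7.24, 8.08 and 8.13 RPKM in osteoblasts and 0.911, 8.49 and 1.76 RPKM in chondrocytes (1.26, 95% interval 0.02 to 2.50, limma adjusted p = 0.0666). Chondrocyte replicate 2 was therefore above all 3 osteoblast libraries for this marker. Cenpf, a kinetochore protein, stood at 1.80, 1.88 and 1.71 RPKM against 0.257, 2.05 and 0.340 RPKM (limma adjusted p = 0.0862), and Cenpe, a kinetochore motor, at 2.17, 2.60 and 2.59 RPKM against 0.380, 2.71 and 0.417 RPKM (limma adjusted p = 0.0745). Both also exceeded every osteoblast library in chondrocyte replicate 2.

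The count of mitotic calls turned on this library and on the scaling. Without chondrocyte replicate 2 all 20 mitotic genes were called higher in osteoblasts, by 1.11 to 2.71 (limma adjusted p from 1.32e-06 to 7.76e-05), against 56.3% of tested genes, while 0 were called lower, against 16.9%. Leaving out the chondrocyte library nearest to the osteoblasts must raise the difference, so this is the contrast with replicates 1 and 3 only. Without chondrocyte replicate 1 or 3, 6 and 5 mitotic genes were called higher, against 52.8% and 55.7% of tested genes. Without osteoblast replicates 1 to 3 the counts were 9, 5 and 7, against 47.2%, 47.6% and 50.8%, so in these 5 settings the mitotic share lay below that of all tested genes. Under median-of-ratios scaling 2 of 20, Plk1 and Kif20a, were called higher, against 33.6% of tested genes, and 20 of 20 were called when replicate 2 was also left out, against 37.2%, and 0 lower, against 31.1%. Without any filter on low values, which brings 23364 genes into the fit, 0 of 20 were called by limma, against 21.7% of those genes, and 9 were higher at an unadjusted p under 0.05. No mitotic gene changed sign in any setting run.

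**Figure D3:**
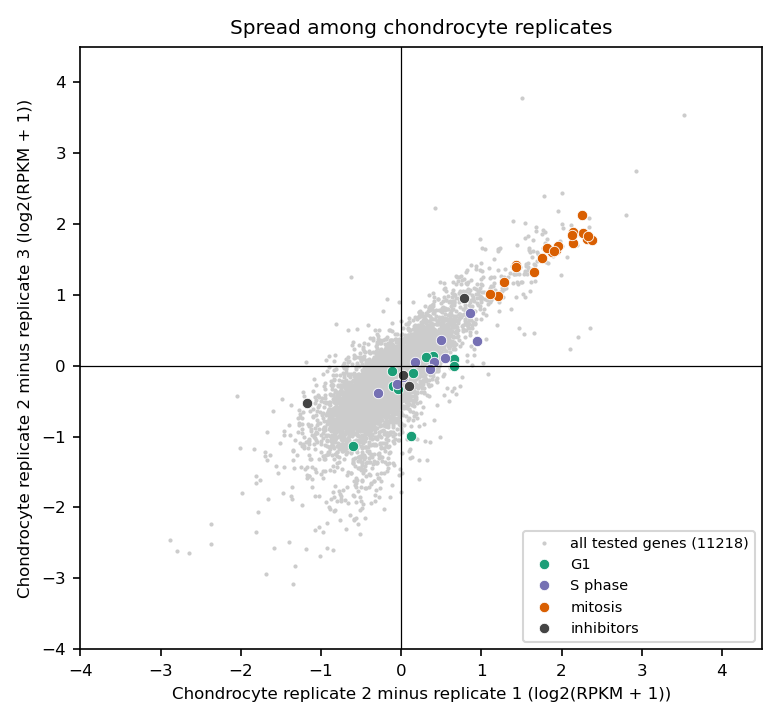
Difference of chondrocyte replicate 2 from replicate 1 (x axis) and from replicate 3 (y axis) in log2(RPKM + 1), for all 11218 tested genes (grey) and the members by class. The 20 mitotic genes lie together at the upper right, while S phase and G1 genes lie nearer to the other genes. Of the 10 S phase genes, 6 were highest in replicate 2, against 17.7% of tested genes.

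Of all tested genes, 133 (1.19%) exceeded both other chondrocyte libraries by a log2 value of at least 1 in replicate 2. Of these 133 genes, 19 were mitotic members (95% of the 20) and 40 came from a list of 62 other mitotic genes (66.7% of the 60 tested), together 44.4%. No S phase, G1 or inhibitor member was among them. By the same rule replicate 3 had 125 genes and replicate 1 had 3, none of them members. Other genes high in replicate 2, picked after their values were seen, were Matn1, a cartilage matrix protein (3.12, 46.6 and 3.10 RPKM in chondrocyte replicates 1 to 3), and Col10a1, the collagen of hypertrophic cartilage (19.9, 58.4 and 3.32 RPKM). Ihh, the hedgehog ligand of cells leaving the proliferative zone, was also high there (1.35, 6.93 and 1.18 RPKM).

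Markers of other cell types were summed beside this pattern, and their part in it was not tested. The summed RPKM of 13 myeloid markers was 9.12, 6.09 and 15.3 in chondrocyte replicates 1 to 3, lowest in replicate 2, and 22.5 to 24.6 in osteoblasts. For 10 erythroid markers in the table the sums were 30.7, 47.0 and 46.7 in chondrocytes and 32.0 to 68.5 in osteoblasts, and the erythroid genes Klf1 and Slc4a1 stayed below 0.15 RPKM in all libraries. Tfrc, the transferrin receptor, which other dividing cells also use, made up 25.2, 18.0 and 26.4 RPKM of the chondrocyte sums. The 4 globin genes summed to 5.29, 28.7 and 20.03 RPKM in chondrocytes, lowest in replicate 1 and highest in replicate 2, and to 28.8 to 64.0 RPKM in osteoblasts. Lymphoid markers summed to at most 0.66 RPKM in any library, with 3 of 9 at the table's floor in all 6. Endothelial markers summed to 3.89, 3.51 and 7.10 RPKM in chondrocytes, highest in replicate 3, and neural and glial markers to 49.6, 54.7 and 37.3 RPKM. Of the latter, S100b, which cartilage also expresses, made up 48.1, 53.4 and 33.8 RPKM, and the other 7 summed to 1.51, 1.28 and 3.48 RPKM, lowest in replicate 2. Muscle markers summed to 14.0, 41.1 and 9.83 RPKM, but 40.1 RPKM of the 41.1 came from Tnnt3 alone, while Myog, Myod1 and Ckm were at or near 0. Summed chondrocyte markers were 47370, 61018 and 34277 RPKM, and hypertrophic markers 68.9, 126 and 47.5 RPKM, both highest in replicate 2. Col2a1 alone made up 48028 RPKM of the 61018, and Col10a1 58.4 RPKM of the 126. Sox9 (193.4, 128.0 and 108.6 RPKM) and Comp (1920, 1606 and 1642 RPKM) were instead highest in replicate 1. Of the hypertrophic markers, Mmp13 was lowest in replicate 2 (0.356, 0.288 and 0.520 RPKM).

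Promoter sequences of mitotic and replication genes are shown because mitotic genes stood out in chondrocyte replicate 2 far more than replication genes did. The cell cycle genes homology region (CHR; TTTGAA or TTCGAA on either strand) is known from late cell cycle promoters, and E2F sites (TTGGCGC or TTCGCGC on either strand) from replication promoters. The submitters' processing notes name mm9, so the windows come from another build and were matched by gene symbol. RefSeq promoter windows (build GRCm38.p6), from 250 bases before to 50 after the transcription start, were found for 34 of the 44 members. CHR letters were in 12 of 16 mitotic promoters, 2 of 9 S phase promoters and 0 of 9 G1 and inhibitor promoters, against 21.7% of the promoters of 27025 symbols. E2F letters were in 4 of 9 S phase and 3 of 16 mitotic promoters, against 4.47% of all symbols. CCAAT boxes (CCAAT on either strand) were in 14 of 16 mitotic and 8 of 9 S phase promoters, against 41.1%; the motifs can overlap, and a match is a description of letters, not a bound site.

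Of the mitotic genes, the 250 bases before the start of Cdc20 (chr4:118437344-118437593 on the minus strand), Cdk1 (chr10:69352913-69353162 on the minus strand) and Top2a (chr11:99024190-99024439 on the minus strand) are shown 5′ to 3′, with CHR letters in capitals. They hold 1, 2 and 4 matches, the nearest starting 18, 15 and 23 bases before the transcription start.
Cdc20: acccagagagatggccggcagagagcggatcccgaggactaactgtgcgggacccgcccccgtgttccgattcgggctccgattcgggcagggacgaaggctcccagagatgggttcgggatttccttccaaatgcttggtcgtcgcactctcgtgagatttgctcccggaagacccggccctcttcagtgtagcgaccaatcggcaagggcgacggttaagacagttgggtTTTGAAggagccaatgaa
Cdk1: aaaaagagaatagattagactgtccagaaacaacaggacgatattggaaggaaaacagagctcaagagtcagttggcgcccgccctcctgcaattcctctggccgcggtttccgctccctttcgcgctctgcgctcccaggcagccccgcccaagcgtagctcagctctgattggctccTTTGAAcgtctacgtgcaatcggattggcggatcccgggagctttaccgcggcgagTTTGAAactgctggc
Top2a: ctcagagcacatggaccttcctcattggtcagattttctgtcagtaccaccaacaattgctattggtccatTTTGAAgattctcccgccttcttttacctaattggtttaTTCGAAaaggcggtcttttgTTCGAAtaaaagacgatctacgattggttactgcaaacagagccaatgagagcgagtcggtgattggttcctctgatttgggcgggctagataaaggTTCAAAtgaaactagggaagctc

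For replication, Mcm5 (chr8:75109259-75109508 on the plus strand) and Mcm6 (chr1:128359706-128359955 on the minus strand) are shown in the same way with E2F letters in capitals. Mcm5, with a 3.43-fold difference, holds 3 matches, and Mcm6, with a 1.26-fold difference, holds 4. Some of these matches overlap each other.
Mcm5: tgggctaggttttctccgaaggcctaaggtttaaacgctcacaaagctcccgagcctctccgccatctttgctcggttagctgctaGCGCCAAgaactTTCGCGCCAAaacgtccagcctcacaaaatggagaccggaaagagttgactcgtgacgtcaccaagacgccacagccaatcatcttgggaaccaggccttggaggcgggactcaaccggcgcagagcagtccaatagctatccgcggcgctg
Mcm6: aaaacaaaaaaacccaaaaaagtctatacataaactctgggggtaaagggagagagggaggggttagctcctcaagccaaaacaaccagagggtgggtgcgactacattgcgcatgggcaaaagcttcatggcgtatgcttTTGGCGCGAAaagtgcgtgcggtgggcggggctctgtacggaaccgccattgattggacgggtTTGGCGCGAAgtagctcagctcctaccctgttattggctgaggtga

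**Figure D4:**
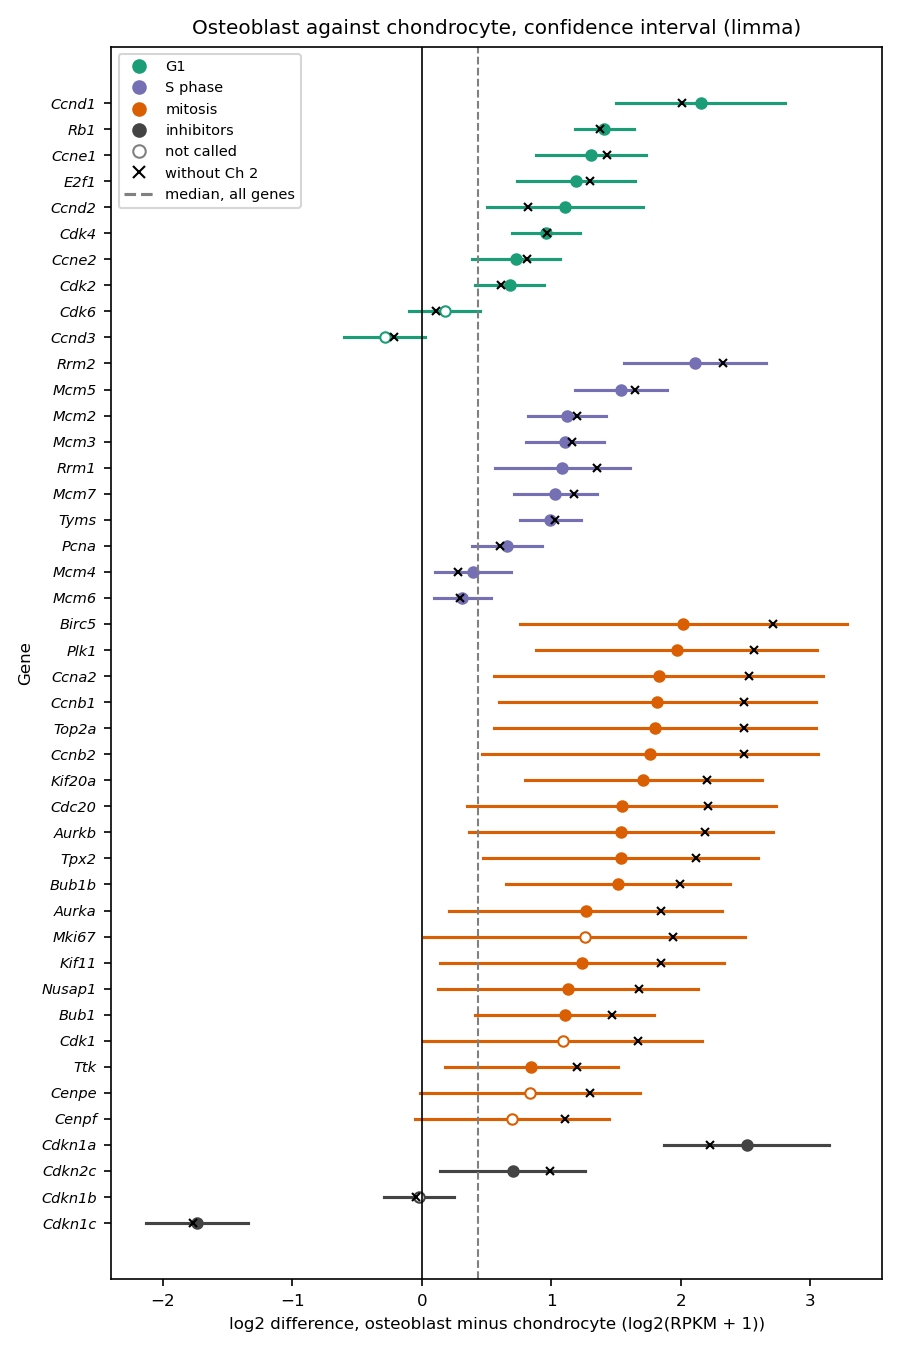
Log2 difference (osteoblast minus chondrocyte) with its 95% interval for each member, filled where called and open where not; crosses give the value without chondrocyte replicate 2 and the dashed line the median of all tested genes (0.43). Mitotic intervals are the widest, and their crosses lie from 1.11 to 2.71.

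The Cip/Kip inhibitors of cyclin-dependent kinases differed between the cell types in opposite directions. Cdkn1a, the p21 inhibitor induced by p53 and by differentiation signals, stood at 264.7, 233.6 and 253.7 RPKM in osteoblasts and 66.3, 28.8 and 41.9 RPKM in chondrocytes. It was 5.48-fold higher in osteoblasts (2.51 ± 0.27 SE, limma adjusted p = 0.000184), the largest difference among the members. Cdkn1c, the imprinted p57 inhibitor needed for chondrocytes to stop dividing, stood at 119.6, 103.2 and 83.0 RPKM in osteoblasts and 303.0, 323.8 and 393.3 RPKM in chondrocytes. It was 3.34-fold higher in chondrocytes (-1.73 ± 0.17 SE, limma adjusted p = 0.000104), the only member called lower in osteoblasts, against 13.5% of tested genes. Cdkn1b, the p27 inhibitor, was not called, at 9.93, 10.7 and 8.23 RPKM against 9.33, 9.45 and 10.4 RPKM (-0.02, 95% interval -0.29 to 0.25, limma adjusted p = 0.869). Relative to the median gene it was lower by 0.46, and under median-of-ratios scaling it was called lower in osteoblasts (-0.43, limma adjusted p = 0.00729).

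The summed RPKM of Cdkn1a, Cdkn1b and Cdkn1c lay from 345.0 to 394.2 in osteoblasts and from 362.0 to 445.7 in chondrocytes. On the deposited scale these totals overlapped, while the makeup did not. The totals depend on library scaling, and the shares do not. Median-of-ratios scaling lowers osteoblast values relative to chondrocyte values, and moved the median gene from 0.43 to 0.06. Once each total was divided by the median-of-ratios factor of its library, every chondrocyte total lay above every osteoblast total. The overlap of the totals therefore did not hold under that scaling. Cdkn1a made up 67.1%, 67.2% and 73.6% of that sum in osteoblasts and 17.5%, 7.97% and 9.41% in chondrocytes. Cdkn1c made up 30.3%, 29.7% and 24.1% against 80.0%, 89.4% and 88.3%. Cdkn1b held 2.34% to 3.07% in all 6 libraries. Among chondrocytes Cdkn1a was lowest in replicate 2, the library with the highest mitotic genes, and highest in replicate 1, the library with the lowest mitotic mean. Between the cell types the order was the other way. Osteoblasts had more Cdkn1a (233.6 to 264.7 RPKM) and also higher mitotic means (2.93 to 3.21). Over all tested genes the median ratio of chondrocyte replicate 2 to replicate 1 was 0.85. A link of Cdkn1a to the mitotic genes was not tested.

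**Figure D5:**
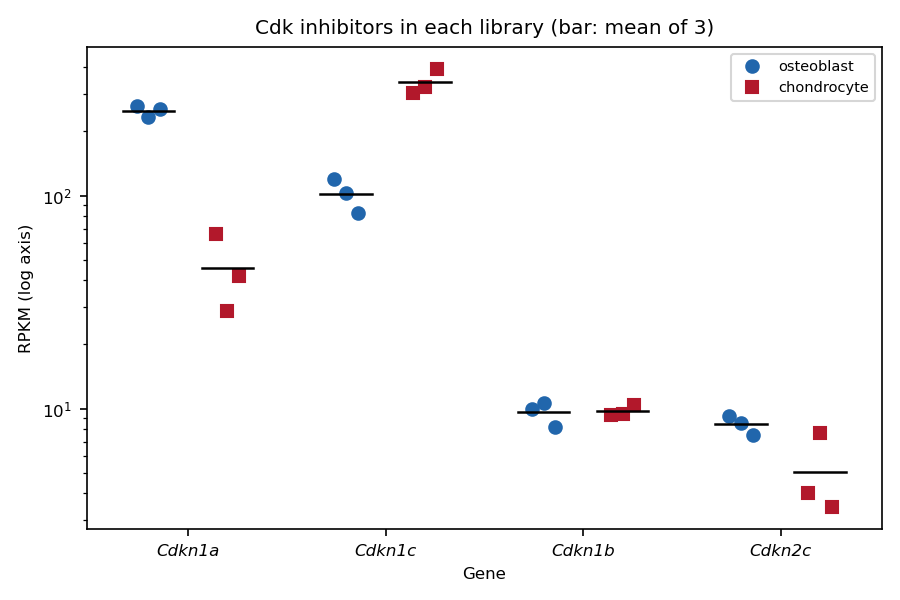
RPKM of the 4 Cdk inhibitors in each library on a log axis, with the group mean as a bar. Cdkn1a is 233.6 to 264.7 in osteoblasts and 28.8 to 66.3 in chondrocytes, and Cdkn1c lies the other way.

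Cdkn1a was listed with 2 transcripts, and their shares also differed. NM_001111099 stood at 41.1, 33.6 and 46.6 RPKM in osteoblasts and 0.479, 0.212 and 0.361 RPKM in chondrocytes. Its share of the gene was 14.4% to 18.4% in osteoblasts and 0.722% to 0.861% in chondrocytes. The main transcript NM_007669 stood at 223.6, 200.0 and 207.1 RPKM against 65.9, 28.6 and 41.6 RPKM. The sources used here do not say how reads were divided between these transcripts. The 2 transcripts of Cdkn1c kept similar shares, with NM_009876 at a mean of 83.5% in osteoblasts and 82.1% in chondrocytes.

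Cdkn2c, the p18 inhibitor of Cdk4 and Cdk6, stood at 9.20, 8.52 and 7.56 RPKM against 4.03, 7.65 and 3.45 RPKM (0.70 ± 0.24 SE, limma adjusted p = 0.0325). Its groups overlapped through chondrocyte replicate 2, and the call ended without any of the other 5 libraries (limma adjusted p from 0.0588 to 0.101) and under median-of-ratios scaling (0.387). Of 5 further inhibitor genes, 4 were tested and 2 were called higher, against 55.5% of all tested genes. Cdkn2b, the p15 inhibitor, stood at 3.81, 3.60 and 2.84 RPKM against 0.171, 0.234 and 0.140 RPKM and met the filter in osteoblasts only; without a filter its difference was 1.90 (limma adjusted p = 0.00332). Cdkn3, a phosphatase that acts on Cdk proteins, followed the mitotic pattern, at 3.21, 3.45 and 3.11 RPKM against 0.385, 2.69 and 0.504 RPKM. Cdkn2a stayed below 0.65 RPKM in every library and was not tested.

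Cdkn1a is a p53 target, and other p53 target genes were examined as a list. Of 16 tested, 13 were called higher in osteoblasts and 2 lower, against 55.5% and 13.5% of all tested genes, with a median log2 difference of 1.77. Under median-of-ratios scaling 12 were called higher and 2 lower, against 33.6% and 28.3%. Phlda3, an inhibitor of Akt, stood at 152.3, 117.7 and 129.1 RPKM against 10.5, 6.09 and 15.2 RPKM (3.60 ± 0.28 SE, limma adjusted p = 4.37e-05). Zmat3, an RNA-binding zinc finger protein, stood at 18.3, 15.3 and 18.3 RPKM against 1.09, 1.22 and 1.52 RPKM (3.01 ± 0.12 SE, limma adjusted p = 2.23e-06). The apoptosis gene Bax and Ccng1, cyclin G1, differed by 2.61 and 2.02. Mdm2, which marks p53 for destruction, differed by 0.56. Gadd45a was higher in chondrocytes, at 5.88, 4.36 and 3.46 RPKM against 29.4, 11.2 and 24.3 RPKM (-1.94 ± 0.34 SE, limma adjusted p = 0.00173), as was Sesn1 (-0.32). Btg2 was not called.

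The other genes of the cycle were described by lists. Of 60 tested other mitotic genes, 37 were called higher in osteoblasts and 0 lower (limma; 0 lower at an unadjusted p under 0.05), with a median of 1.14, and 55.5% of all tested genes were called higher. Under median-of-ratios scaling 9 of 60 were called higher, against 33.6% of tested genes. Leaving out each library gave 21 to 57 calls, with 21 without osteoblast replicate 2 and 57 without chondrocyte replicate 2. Of the 60, 56 were highest in chondrocyte replicate 2, against 17.7% of tested genes. They were a median of 5.87 times as high there as in replicate 1. Fam64a, a gene of mitotic cells, differed most, at 9.28, 9.46 and 7.92 RPKM against 0.405, 3.30 and 0.892 RPKM (2.13 ± 0.37 SE, limma adjusted p = 0.00177), followed by the kinetochore gene Spc24, at 7.75, 8.79 and 7.14 RPKM against 0.708, 2.99 and 1.34 RPKM (1.82 ± 0.29 SE, limma adjusted p = 0.00107). In both genes chondrocyte replicate 2 was the highest of its group and below every osteoblast library. Foxm1, the activator of late cell cycle genes, stood at 7.64, 8.90 and 7.61 RPKM against 1.45, 5.46 and 1.89 RPKM (1.34).

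Of 50 tested other replication genes, 38 were called higher and 0 lower on the deposited scale (limma, also 0 lower at an unadjusted p under 0.05). The shares of all tested genes were 55.5% and 13.5%, and the median of the list was 0.76. Under median-of-ratios scaling 29 of 50 were called higher and 4 lower, against 33.6% and 28.3%. At an unadjusted p under 0.05 (limma) 6 were lower under that scaling. Of the 50, 35 were highest in chondrocyte replicate 2, against 17.7% of tested genes. The median ratio of replicate 2 to replicate 1 was 1.25, against 0.85 for all tested genes. Cdc6, Gins1 and Gins3 met the filter in osteoblasts only. Tk1, thymidine kinase, stood at 17.6, 19.3 and 19.2 RPKM against 1.35, 8.33 and 2.84 RPKM (2.17 ± 0.44 SE, limma adjusted p = 0.0036). The Pcna-binding gene 2810417H13Rik stood at 7.71, 11.2 and 8.21 RPKM against 0.697, 3.11 and 1.10 RPKM (2.02 ± 0.32 SE, limma adjusted p = 0.00108), with no overlap.

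Of 28 tested other G1 and E2F or Rb family genes, 15 were called higher and 2 lower, against 55.5% and 13.5% of all tested genes. Their median of 0.49 was near the 0.43 of all tested genes. Under median-of-ratios scaling 9 were called higher and 6 lower, against 33.6% and 28.3%. Mycn, a growth-promoting transcription factor, stood at 4.07, 4.39 and 3.55 RPKM against 0.298, 0.183 and 0.225 RPKM and met the filter in osteoblasts only; without a filter its difference was 2.02 (limma adjusted p = 0.00252). Skp2, which targets p27 for destruction, stood at 7.21, 9.19 and 6.98 RPKM against 1.30, 2.41 and 1.71 RPKM, with no overlap (1.66 ± 0.17 SE, limma adjusted p = 0.000138). Tfdp2, an E2F partner, and Lin52, of the DREAM complex, were lower in osteoblasts by -0.47 and -0.46. Of 12 genes of the anaphase promoting complex, which acts with Cdc20, 9 were called higher and 0 lower, against 55.5% and 13.5% of all tested genes. They differed by 0.74 or less, and the list's median of 0.34 lay below that of all tested genes. Under median-of-ratios scaling 2 were called higher and 2 lower, against 33.6% and 28.3%. Anapc13 differed most, at 31.1, 32.9 and 22.5 RPKM against 15.6, 16.4 and 18.1 RPKM (0.74 ± 0.15 SE, limma adjusted p = 0.00363), followed by Cdc23, at 14.9, 15.5 and 15.6 RPKM against 9.75, 7.49 and 10.3 RPKM (0.70 ± 0.12 SE, limma adjusted p = 0.0018). Neither gene's groups overlapped, and in 60.4% of tested genes every osteoblast library lay above every chondrocyte library.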

How the data were processed

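RNA-seq of 6 libraries, 3 per cell type, was analysed. The values are RPKM per transcript as deposited by the authors; the submitters' processing notes name the aligner TopHat2 2.0.8 and the build mm9, and the quantifier, annotation and strand are not given in the sources used here. RPKM of 31055 transcripts was summed to 23364 symbols. The 11218 genes that reached 1 RPKM in 3 or more libraries were tested on log2(RPKM + 1) with limma 3.58.1 (R 4.3.3; trend and robust moderation, two-sided, Benjamini-Hochberg). The fit was tested on simulated data. The table holds no counts; low values lay within 0.05 of whole reads in 52.9% to 58.7% of cases when transcript lengths from another annotation were used, so depth is an estimate and no count test was run. At that depth 1 RPKM of a 2 kb transcript is 53.8 to 71.7 reads.

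The members and gene lists were chosen with earlier results of these data known. Values in every library were given, per class, for the 4 called members of largest difference, the 2 uncalled of highest mean and the 2 of largest chondrocyte SD; the 2 largest called differences of each list in each direction were named; other genes were described for their role or after their values were seen. Replicate numbers did not pair the libraries, so the fit has no block. Alternatives covered pseudocount, filter, scaling, moderation, library weights, the replicate block, each library left out and the choice of transcript.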

Additional observations from a re-analysis of the deposited data

How the results depend on the processing

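Of 779 values of single members under the alternatives, 620 kept direction and side of the threshold, 126 lost a call, 21 gained a call and 12 turned. Those that turned were Mcm4 (-0.0061 under median-of-ratios and -0.011 under upper-quartile scaling, -0.052 with median-of-ratios scaling and no chondrocyte replicate 2), Mcm6 (-0.11, -0.11 and -0.055) and Cdk6 (-0.10, -0.11 and -0.12). Cdkn1b turned to 0.042 with library weights, 0.074 without osteoblast replicate 3 and 0.023 without chondrocyte replicate 3. The causes were not tested, but scaling shifts the median gene from 0.43 to 0.06, and a stricter filter tests fewer genes.

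Members called higher were 36, and 16 without a filter, 17 with median-of-ratios scaling and 17 with upper-quartile scaling. Leaving out each library gave 22 to 40. Of all tested genes 55.5% were called higher, and 21.7% without a filter and 33.6% with median-of-ratios scaling. Leaving out each library gave 47.2% to 56.3%. Upper-quartile scaling called 3706 of 11218 genes higher, and scaling to equal sums 5352. A mean of at least 5 RPKM left 6911 genes, 4092 of them called higher, and 31 members, 26 of them called higher. Counts under that filter, here and below, are therefore out of fewer genes. Members called lower were 1, and 3 with median-of-ratios scaling (also without chondrocyte replicate 2), 3 with upper-quartile scaling and 2 after scaling to equal sums. Mitotic genes called higher were 16, and 0 without a filter, 10 with a mean of at least 5 RPKM, 2 with median-of-ratios, 2 with upper-quartile scaling and 10 after scaling to equal sums; leaving out each library gave 5 to 20. G1 genes called higher were 8 of 10, and 5 of the 6 tested with a mean of at least 5 RPKM. Called lower were 0, and 1 under each of those 3 scalings and under median-of-ratios scaling without chondrocyte replicate 2. S phase genes called higher were 10, and 6 under median-of-ratios and upper-quartile scaling. Inhibitors called higher were 2, and 1 without a filter, under each of the 3 scalings and, leaving out each library, 1 to 2; called lower were 1, and 2 under median-of-ratios scaling, with or without chondrocyte replicate 2, and upper-quartile scaling.

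Other mitotic genes called higher were 37, and 10 without a filter, 17 with a mean of at least 5 RPKM, 9 and 10 under median-of-ratios and upper-quartile scaling, 57 with library weights, 56 with median-of-ratios scaling and no chondrocyte replicate 2, and 21 to 57 when each library was left out. Other replication genes were 38, and 19 with a mean of at least 5 RPKM. Other G1 genes were 15, and 8 with a mean of at least 5 RPKM and 9 under median-of-ratios and upper-quartile scaling. Other Cdk inhibitors were 2, and 0 with a mean of at least 5 RPKM, 1 without a filter and under each of the 3 scalings, and 1 to 3 when each library was left out. Genes of the anaphase promoting complex were 9, and 3 without a filter, 2 under median-of-ratios and upper-quartile scaling, 5 after scaling to equal sums, 3 with median-of-ratios scaling and no chondrocyte replicate 2, and 5 to 9 when each library was left out. The count of p53 targets stayed within 1.5 times of 13 in all settings.

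The class mean difference was 0.94 for G1, and 0.57 under median-of-ratios scaling, 1.15 with a pseudocount of 0.1 and 0.63 with 5. It was 1.03 for S phase, and 0.64 under median-of-ratios scaling and 0.72 with a pseudocount of 5. For inhibitors it was 0.36, and -0.057 under median-of-ratios scaling. Leaving out each library gave 1.07 to 2.00 for mitosis. Members highest in chondrocyte replicate 2 went from 3 to 5 for G1 and from 1 to 2 for inhibitors under median-of-ratios scaling. Median-of-ratios scaling without chondrocyte replicate 2, and the class means with each library left out, were chosen after seeing the data.

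Same-numbered libraries share only a number: their deviations correlated at 0.079, 0.0096 and -0.16. With the replicate block 8 G1, 8 S phase and 17 mitotic genes were called higher. The RPKM table carries no counts, which limits the precision known for low genes.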

Other observations

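Of the 133 genes that exceeded both other chondrocyte libraries in replicate 2, 69 belong to none of the lists used here. The following were picked after their values were seen. Fkbp5, a co-chaperone of the glucocorticoid receptor and a known glucocorticoid target, stood at 3.01, 29.6 and 3.52 RPKM in chondrocyte replicates 1 to 3 and at 12.0, 7.79 and 8.87 RPKM in osteoblasts, so replicate 2 was the highest of all 6 libraries. Zbtb16, a transcription factor also known to respond to glucocorticoids, stood at 1.63, 9.54 and 0.936 RPKM in chondrocytes and at 1.01, 0.493 and 0.543 RPKM in osteoblasts. Panx3, a channel protein of prehypertrophic chondrocytes and osteoblasts, stood at 2.04, 9.70 and 2.10 RPKM in chondrocytes and from 69.9 to 93.3 RPKM in osteoblasts. These values rest on 1 library, and no test was made of them.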
